A study of Mus musculus with 22 samples.

Results

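Kainic acid (KA) activates glutamate receptors of the kainate type and causes seizures. It was given to mice whose excitatory forebrain neurons lack serum response factor (SRF). The response of their dentate gyrus was read from 11 of the 22 arrays of the study, 5 from KO mice given KA and 6 from KO mice given saline. All 46237 probes of these arrays were tested. The genes named below were chosen in part by their values, by rules given with the processing. The study hybridized RNA of the microdissected dentate gyrus to Illumina MouseWG-6 v2.0 arrays, 1 array for each animal, and compared 2 genotypes and 2 treatments in adult male mice. KO mice were Srf f/f; CaMKCreERT2, that is, both copies of Srf were flanked by loxP sites and a tamoxifen-activated Cre recombinase was made under the CaMKIIα promoter. CTR mice were Srf f/f littermates without the recombinase (6 given saline and 5 given KA). Tamoxifen was given to mice of both genotypes. KA was injected intraperitoneally at 35 to 50 mg/kg, and tissue was taken 6 h after status epilepticus or after saline. The recombinase acts only in excitatory forebrain neurons, so interneurons, glia and vessels of KO mice keep Srf. In tissue RNA, fewer cells of a type and less RNA per cell cannot be told apart.

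SRF binds the CArG box, a short motif in the control regions of many genes that answer within minutes to calcium influx and growth factors, and its partners link it to MAP kinase signaling and to the state of actin. Another factor that neuronal activity switches on, CREB, binds the cyclic AMP response element (CRE). In the dentate gyrus, seizures switch on a first wave of transcription factors and a later wave of secreted factors, synaptic proteins and neuropeptides, and glial cells react in turn.

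The deposited log2 signals ran from 6.69 to 16.12 over all 22 arrays, and the medians of the single arrays lay between 7.86 and 7.91. A fold change of a probe near the low end of this range is understated, and 1 that reaches the high end may be. Srf, the targeted gene, had a log2 signal of 11.20 to 11.59 (median 11.45, n = 6) in KO mice after saline and of 11.32, 11.10, 10.95, 11.41 and 11.37 in KO mice after KA. KA did not change it in KO mice (log2 difference −0.18, standard error 0.10, limma adjusted p = 0.34), and all 11 KO arrays lay below all 11 CTR arrays. The sources used here do not say whether its probe falls within the floxed exons. Correlations between arrays of a group ran from 0.985 to 0.995 in KO mice after saline and from 0.980 to 0.994 after KA.

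KA changed 1853 genes in KO mice, 922 of them upwards and 931 downwards. A gene was called when its adjusted p was under 0.05, over all probes, and its change exceeded 1.5-fold, and each of the 21946 genes was represented by the probe of its symbol with the highest mean signal. The calls were 8.44% of genes, 4.2% higher and 4.24% lower, and 2811 probes or 6.08%. The largest changes were rises: 63 genes rose and 7 fell more than 4-fold, and 328 rose and 213 fell more than 2-fold. The 5 KA arrays did not overlap the 6 saline arrays in 3174 genes (14.5%). In CTR mice 3808 genes were called (17.4%, of which 8.88% of all genes were higher and 8.48% lower). Of the KO calls, 1486 were called in the same direction in CTR mice, 80.2% of the KO list and 39% of the CTR list, 356 were not called in CTR mice and 11 were called in the opposite direction. The difference between the responses of the genotypes was tested as the genotype by treatment interaction, called at an adjusted p under 0.01, and was called for 644 genes (2.93%). It was called for 189 of the 1853 genes that KA changed in KO mice. Among the 922 that rose, 105 rose less and 51 rose more than in CTR mice.

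The response was not equally large on the 5 arrays. Taken as the difference of an array from the mean of the KO saline arrays, the median response of the 922 higher genes was 0.95, 0.89, 1.01, 0.66 and 0.97 on the log2 scale in KO KA replicates 1 to 5, and that of the 931 lower genes −0.881, −0.769, −0.997, −0.582 and −0.848. KO KA replicate 4 had the smallest response in both directions. Leaving it out gave 2183 genes called, and leaving out KO KA replicate 3, which had the largest, gave 1651.

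Gene lists of known function were then counted, 24 lists of pathways and 10 of cell type markers with 641 measured genes. The lists were chosen with earlier results of these data known, so their counts and their order are descriptions. Of these, 114 were higher and 39 lower in KO mice after KA. Over all 21946 genes, 4.2% were higher and 4.24% lower. The shares are not fully alike: 8675 of all genes had a signal under that of the median probe, near the low end of the range. In every list most members lay above it. The median log2 change of all genes was −0.0020.

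**Figure D1:**
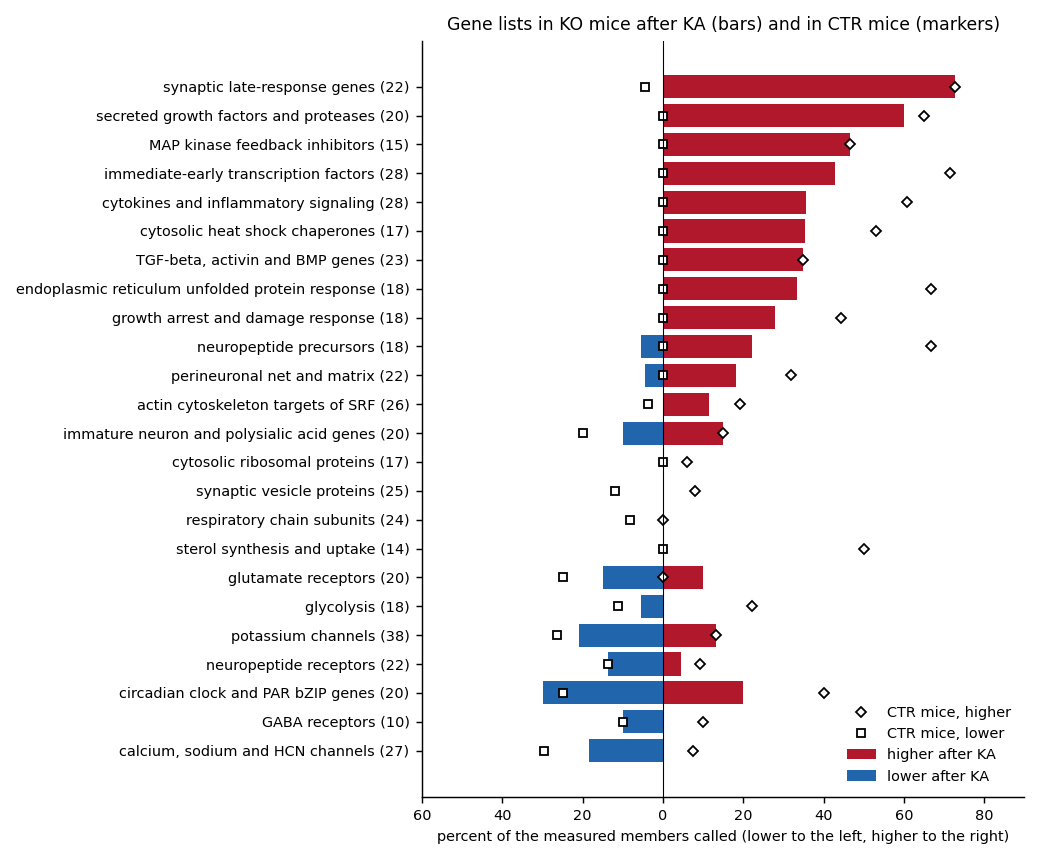
Share of the measured members of each of 24 pathway lists (number measured in parentheses) called higher (to the right) or lower (to the left) after KA in KO mice (bars) and in CTR mice (diamonds, higher; squares, lower). Synaptic late-response genes had 16 of 22 members higher in KO mice, and sterol, synaptic vesicle, ribosomal and respiratory chain genes none called. Over all genes, 4.2% were higher and 4.24% lower in KO mice, but these hold more genes of low signal than the lists do.

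The promoters of the induced genes are shown first, since the CRE and the CArG box bind different factors. RefSeq promoters (GRCm38.p6) from 250 bases before to 50 after the start site were searched on both strands. The CRE, spelled TGACGTCA, was present in the promoters of 5.07% of the genes that rose in KO mice (35 of 691 with a promoter in the table), of 1.73% of those that fell (12 of 693), of 2.72% of all measured genes and of 2.03% of all 27025 genes in the table. Its core, TGACG, which every complete CRE also holds and which was added to the search after the first counts, was found in 40.2%, 26.8%, 27.9% and 23.0%. The CArG box was found in 2.46% of the genes that rose in KO mice, in 1.44% of those that fell, in 1.65% of all measured genes and in 1.81% of all genes of the table. The CRE share was 5.14% for the genes that were higher in CTR mice and not called in KO mice, and 7.5% for those that rose in KO mice with a called smaller change than in CTR mice, and the CArG share of these sets was 1.9% and 5.0%. These shares are descriptions without a test, and a match is not a bound site. Of the 114 list members that rose in KO mice, 90 had a promoter in the table and 6 held a complete CRE before the start site. Their windows of 28 bases follow 5′ to 3′ on the gene's own strand, with the CRE in capitals.
Sstr2: caagctgccgTGACGTCAcgggcggggg
Plk2: gcgctcgccgTGACGTCAcgaggccccg
Scg2: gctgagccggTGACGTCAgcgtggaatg
Errfi1: ctgcgggcgtTGACGTCAcgttgtcgct
Dusp1: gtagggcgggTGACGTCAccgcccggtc
Maff: gctggggcggTGACGTCActgcatgact
They lie at chr11:113619259-113619286 (plus strand), chr13:110394972-110394999 (plus), chr1:79440077-79440104 (minus), chr4:150855009-150855036 (plus), chr17:26508598-26508625 (minus) and chr15:79347481-79347508 (plus). Counted from the start site, the first base of the CRE lay at −58, −62, −68, −51, −143 and −29.

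Of these 6 genes, Sstr2 and Plk2 rose most. Sstr2, a receptor of the inhibitory peptide somatostatin, had a log2 signal of 11.25 to 11.83 (median 11.64) in KO mice after saline and of 14.47, 14.23, 13.92, 13.61 and 14.32 after KA. It rose 5.70-fold, by 2.51 on the log2 scale (standard error 0.13, adjusted p = 4.6e-12), and its rise in CTR mice was 2.84. Plk2, a kinase that weakens overactive synapses, went from 11.81 to 12.43 (median 12.15) to 14.36, 14.20, 14.65, 13.68 and 14.14, which is 4.26-fold higher (log2 difference 2.09, standard error 0.15, adjusted p = 9.6e-10). No KA array overlapped a saline array in these genes or in the other 4. Scg2, a granin of secretory granules, Errfi1, an inhibitor of the EGF receptor, Dusp1, a phosphatase of MAP kinases, and Maff, a bZIP factor, rose by 1.44, 0.90, 0.84 and 0.66 on the log2 scale (adjusted p = 2.1e-07, 5.4e-05, 2.3e-04 and 0.0064). The genotypes differed in 5 of the 6, with a smaller rise in KO mice, and the difference was not called for Sstr2 (difference −0.33, adjusted p = 0.43).

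CArG boxes, in capitals, are shown for Srf itself, for Rnd3 and Egr2, which rose in KO mice by far less than in CTR mice, and for Fhl2, which did not. Egr2 and Fhl2 have a box before each of a pair of annotated start sites.
Srf: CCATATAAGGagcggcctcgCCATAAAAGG
Rnd3: tcccaggctCCATAAAAGGggaggaggc
Egr2, first start site: ggatcttctCCTTTTTTGGaaagtctcg
Egr2, next start site: ttcctcagtCCATATATGGgcagcgacg
Fhl2, first start site: atttagagaCCAAAAAAGGcttgcagga
Fhl2, next start site: cgcgtgtgtCCTTATATGGtcaaatgac
They lie at chr17:46556215-46556244 (minus strand), chr2:51149193-51149220 (minus), chr10:67537485-67537512 (plus), chr10:67537788-67537815 (plus), chr1:43196839-43196866 (minus) and chr1:43163974-43164001 (minus). Fhl2, a LIM protein that binds SRF, rose by 0.60 (adjusted p = 0.0017) in KO mice and stood at 0.29 in CTR mice, with no called difference (0.31, adjusted p = 0.47). Rnd3, a small GTPase without GTP hydrolysis that loosens actin stress fibers, had 8.73 to 9.48 (median 8.90) after saline and 9.24, 9.47, 10.33, 9.45 and 9.63 after KA in KO mice. The arrays overlapped. In KO mice it rose by 0.65 (standard error 0.16, adjusted p = 0.0072), and by 3.69 in CTR mice, and the difference of −3.04 was called (adjusted p = 4.4e-08). Without KO KA replicate 3 its rise in KO mice was 0.47 and was not called. Egr2, a zinc finger factor, rose by 1.05 in KO mice (standard error 0.15, adjusted p = 2.0e-05), with 9.61, 9.26, 9.24, 9.12 and 9.43 after KA against 8.15 to 8.47 (median 8.26) after saline, and by 3.17 in CTR mice (difference −2.12, adjusted p = 2.1e-06).

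Of 28 measured immediate-early transcription factors, 12 rose and none fell in KO mice, and the other 16 were not called (median log2 change 0.42). In CTR mice 20 rose (median 1.43), and the difference was called for 12 members, all with the smaller change in KO mice. Fosb, a subunit of the AP-1 factor, had the largest change of the list in KO mice, from 8.98 to 9.66 (median 9.18) after saline to 11.79, 12.11, 12.41, 11.49 and 11.74 after KA (6.35-fold, log2 difference 2.67, standard error 0.20, adjusted p = 2.0e-09). Atf3, a stress-induced bZIP factor, rose by 2.42 (standard error 0.25, adjusted p = 2.6e-07), with 10.12, 10.23, 10.92, 9.23 and 10.44 after KA against 7.54 to 7.99 (median 7.79). In both genes the lowest KA array stood well above the highest saline array. In CTR mice Fosb rose by 5.09 and Atf3 by 4.44. Both differences were called (−2.42 and −2.02, adjusted p = 1.5e-05 and 9.4e-04).

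Fosl2, Crem, Jund and Cebpb were bZIP factors of the list that rose in KO mice without a called difference between the genotypes at their brightest probes. Fosl2, a Fos relative, rose in KO mice by 1.79 (standard error 0.12, adjusted p = 3.2e-10) and by 2.46 in CTR mice. Its 2 other probes were dim and not called in KO mice (0.16 and 0.32). The latter had a called smaller change than in CTR mice (1.03, difference −0.71, adjusted p = 0.0065), the former not. Crem, a CRE-binding relative of CREB, rose by 1.08 (adjusted p = 4.2e-04) and 1.88, and Jund, an AP-1 subunit, by 0.63 and 1.29. Cebpb, a bZIP factor of inflammation and memory, rose by 0.76 in KO mice (adjusted p = 0.026) and by 0.69 in CTR mice, while KO KA replicate 3, at 12.86, lay within the saline range of 12.78 to 13.22. The difference was not called for Fosl2 (−0.66, adjusted p = 0.021), Crem (−0.80, adjusted p = 0.12) or Cebpb (0.07, adjusted p = 0.95). Npas4, a factor specific to neurons that calcium influx induces, did not pass the test in KO mice (8.50, 8.13, 8.61, 8.22 and 8.34 after KA against 7.79 to 8.28, log2 difference 0.28, adjusted p = 0.75), against 3.92 in CTR mice (difference −3.64, adjusted p = 8.0e-05). Nr4a2, an orphan nuclear receptor, stood at 0.05 in KO mice and 2.34 in CTR mice, and this difference was called too.

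**Figure D2:**
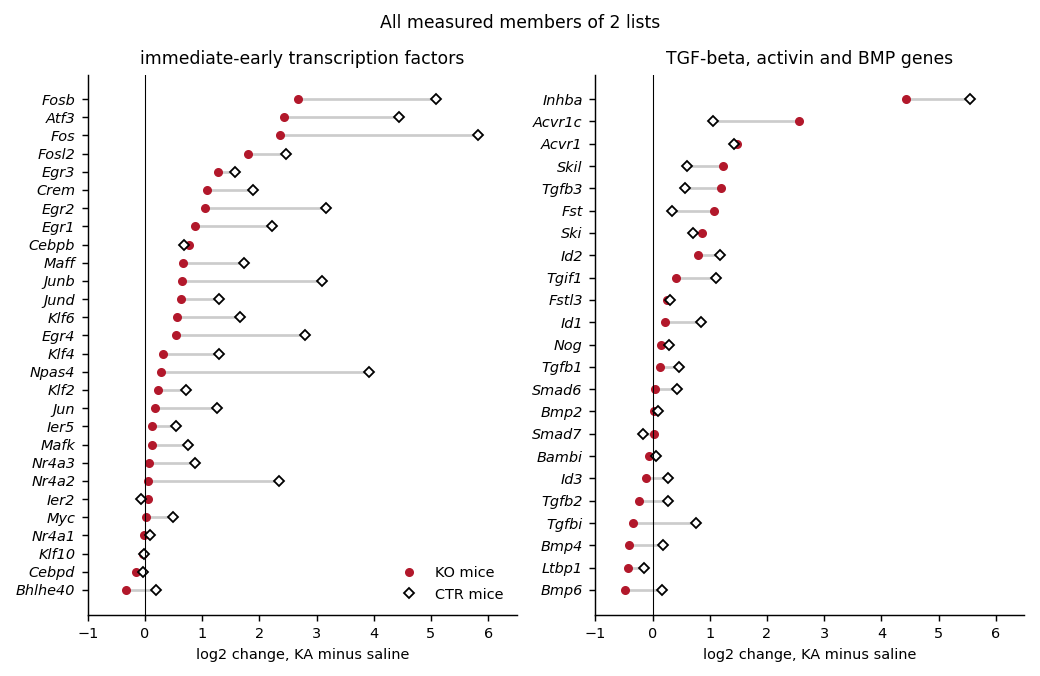
Log2 change, KA minus saline, of every measured member of the immediate-early list (28 genes) and of the TGF-beta, activin and BMP list (23 genes) in KO mice (filled circles) and CTR mice (diamonds). For 12 immediate-early factors, Npas4 and Fos among them, the change in KO mice was smaller with a called difference, whereas that of Acvr1c, 2.55 against 1.06, was larger.

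Genes of activin and TGF-beta signaling rose in KO mice. Activin is a secreted dimer of inhibin beta subunits that protects granule cells and signals through type I receptors to SMAD factors, and follistatin binds and silences it. Of 23 measured members, 8 rose and none fell (median log2 change 0.14), as many as in CTR mice (8, median 0.43). Inhba, the subunit that forms activin A, had 14.46, 14.09, 15.18, 13.36 and 13.84 after KA against 9.54 to 10.03 (median 9.72) after saline, the largest rise of all genes in KO mice (21.6-fold). Its rise in CTR mice was 5.55 on the log2 scale against 4.43 in KO mice, a difference that was not called (adjusted p = 0.059). The CTR arrays after KA, at 15.5 to 15.95, lay near the top of the signal range, where a rise may be understated.

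Receptors and inhibitors were among the 8 that rose. Acvr1c, a type I receptor also named ALK7, had 9.90 to 10.63 (median 10.24) after saline and 13.16, 12.87, 12.86, 12.48 and 12.64 after KA, with a wide gap between the groups. It rose 5.87-fold, or by 2.55 (standard error 0.21, adjusted p = 1.0e-08), more than in CTR mice (1.06, difference 1.49, adjusted p = 0.0035). Acvr1, another type I receptor, rose by 1.48 in KO mice and 1.43 in CTR mice (adjusted p of the difference 0.93). Skil, which represses SMAD targets, had 13.23, 13.18, 13.47, 13.18 and 13.31 after KA against 11.96 to 12.11 (median 12.03) and rose by 1.23 (standard error 0.10, adjusted p = 1.7e-08), against 0.60 in CTR mice (difference 0.63, adjusted p = 0.013, not called). Tgfb3, a TGF-beta ligand, and Fst, the gene of follistatin, rose by 1.19 and 1.08 (adjusted p = 1.3e-05 and 0.0011), against 0.56 and 0.34 in CTR mice, with no called difference. Pmepa1, a membrane protein that TGF-beta induces and that holds back SMAD signaling, was no list member. It had 12.48, 12.59, 11.76, 12.13 and 12.21 after KA against 9.05 to 9.39 (median 9.30) after saline and rose 7.91-fold, or by 2.98 (standard error 0.17, adjusted p = 1.7e-11). Its rise in CTR mice was 1.98 (difference 1.01, adjusted p = 0.012, just short of the threshold). The BMP ligands Bmp4 and Bmp6 did not pass the test (−0.41 and −0.48), nor did Id1 (0.21), a target of BMP, and Smad7 (0.02), an inhibitor of the receptors. Id2, an inhibitor of bHLH factors, and Ski, a relative of Skil, rose by 0.79 and 0.87.

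Synaptic late-response genes were the list with the largest share called, 16 of 22 higher and none lower (median log2 change 1.03), with 16 higher and 1 lower in CTR mice (median 1.99). Like the other lists, it was chosen with earlier results of these data known. Nptx2, which clusters AMPA receptors from outside the cell, and Arc, which promotes their uptake, were the second and the third largest rises of all genes, at 3.98 and 3.81 on the log2 scale. Pcdh8, a protocadherin that draws cadherin into dendrites, had 11.12, 10.68, 11.13, 10.25 and 11.22 after KA against 8.38 to 8.97 (median 8.79), a rise of 2.17 (standard error 0.20, adjusted p = 5.2e-08). Every KA array lay above every saline array. In CTR mice Nptx2, Arc and Pcdh8 rose by 4.51, 4.96 and 3.39. At these probes the difference was called for Arc only (−1.16, adjusted p = 0.0067). Nptx2 lay at 15.93 to 16.07 in CTR mice after KA, at the top of the signal range (highest signal 16.12). Its rise there, and with it its difference between the genotypes, may be understated. Another Pcdh8 probe had a called difference (−1.35, adjusted p = 3.8e-04). Lingo1, which holds back axon growth, rose by 2.07 and Rgs4, which shortens G protein signaling, by 1.82. Syt4, a vesicle protein, did not pass the test (0.33) and rose by 2.13 in CTR mice, and Homer1, a postsynaptic scaffold, rose by 0.61 and stood at 0.57 in CTR mice, where it was not called. Which form of Homer1, the short activity-induced one or the long ones, the probe reads is not given in the sources used here.

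Among secreted factors, 12 of 20 rose and none fell (median 1.00), against 13 in CTR mice (median 1.37). Bdnf, the neurotrophin that strengthens synapses of granule cells, had 14.62, 14.18, 14.32, 13.70 and 14.38 after KA against 12.12 to 12.61 (median 12.39), or 3.69-fold more (1.88 on the log2 scale, standard error 0.16, adjusted p = 1.2e-08). Vgf, a precursor of secreted peptides, went from 11.60 to 12.21 (median 11.88) to 14.17, 14.16, 14.13, 13.29 and 14.46, or 4.42-fold. Neither gene had overlapping groups. In CTR mice Vgf rose by 3.46 (difference −1.32, adjusted p = 0.0053, called). Bdnf rose there by 2.70 (difference −0.81, adjusted p = 0.035, not called). Of the 5 other Bdnf probes, those with differences of −2.08 and −1.08 were called (adjusted p = 2.3e-05 and 0.0026), the rest not. Wnt2, a Wnt ligand, rose by 1.46 in KO mice (adjusted p = 2.1e-05) against 0.42 in CTR mice, a difference that was not called (1.04, adjusted p = 0.041). Nrg1, a ligand of ErbB receptors, did not pass the test in KO mice (0.26) and stood at 1.48 in CTR mice.

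**Figure D3:**
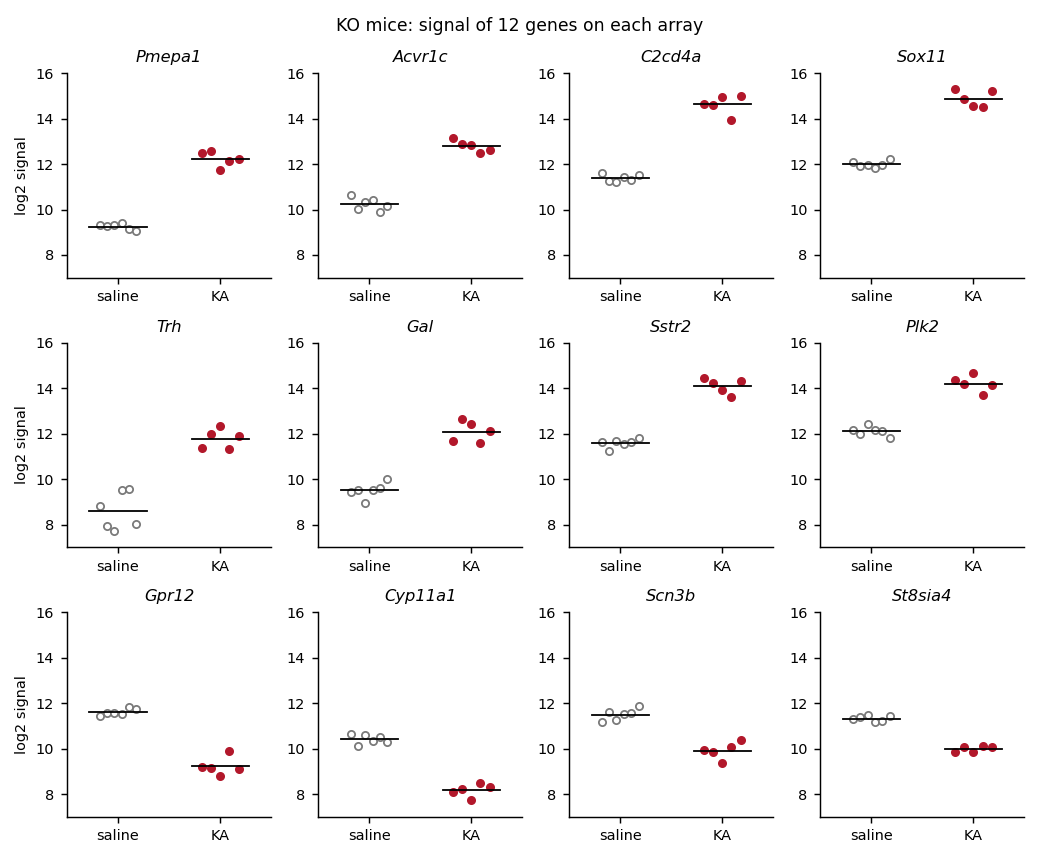
Log2 signal of 12 genes on each array of KO mice, after saline (open circles, 6 arrays) and KA (filled circles, 5 arrays), with the group mean as a line. The groups do not overlap in any of the 12, some of which were chosen for this. KO KA replicate 4 has the lowest KA value in Acvr1c, C2cd4a, Sox11, Trh, Gal, Sstr2 and Plk2.

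Other genes among the 15 largest rises without overlapping groups have less known roles in seizures. C2cd4a, a nuclear protein that inflammatory signals induce in vessels and pancreas, had 14.64, 14.61, 14.96, 13.95 and 15.001 after KA against 11.22 to 11.59 (median 11.36), a rise of 9.51-fold (adjusted p = 1.7e-11), and its difference from CTR mice, 0.42, had a 95% interval of −0.10 to 0.95. Sox11, a factor of immature neurons, went from 11.81 to 12.21 (median 11.96) to 15.30, 14.85, 14.57, 14.51 and 15.20 (7.45-fold, standard error 0.13 on the log2 scale), and differed from CTR mice by −0.08 (95% interval −0.46 to 0.29). Sult2b1, a sterol sulfotransferase, had 13.46, 13.18, 13.45, 12.49 and 13.48 after KA against 9.80 to 10.23 (median 10.02). In these genes the groups stood apart by more than the whole range within either group. Sult2b1 rose by 3.19 against 4.50 in CTR mice (difference −1.31, adjusted p = 0.0013). Plpp4, a lipid phosphatase, rose by 2.88 and 2.40, and Fndc9, a membrane protein with a fibronectin domain, by 3.14 and 5.13. Blnk, an adapter of B cell receptor signaling, Sorcs3, a sorting receptor that acts on AMPA receptors, Gadd45b, Trh, Cdkn1a and the unannotated C030048B12Rik completed the 15. All 15 were also called higher in CTR mice. The interval of the difference lay within 1 log2 unit of 0 for 4 of them, Sorcs3, C2cd4a, Sox11 and C030048B12Rik, and over all higher genes for 535 of 922.

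Of 18 neuropeptide precursors, 4 rose, 1 fell and the other 13 were not called (median 0.14), while 12 rose in CTR mice (median 0.80). Trh, the precursor of thyrotropin-releasing hormone, had 7.70 to 9.56 (median 8.42) after saline and 11.39, 11.97, 12.35, 11.31 and 11.88 after KA, 9.09-fold higher (3.18 on the log2 scale, standard error 0.50, adjusted p = 8.4e-05) with the widest spread after saline of the 15 largest rises. Gal, the precursor of the inhibitory peptide galanin, had 11.65, 12.62, 12.43, 11.59 and 12.10 after KA against 8.96 to 9.99 (median 9.50), or 5.99-fold more (log2 difference 2.58, standard error 0.29, adjusted p = 1.3e-06). The groups did not overlap in either gene. In CTR mice Gal rose by 1.47, and the difference of 1.11 was not called (adjusted p = 0.16). Pdyn, the precursor of dynorphin, an opioid that granule cells release, rose by 1.61 (adjusted p = 2.2e-07), with a highest array of 15.08 in KO KA replicate 3, and Npy by 2.52. Adcyap1, the precursor of PACAP, fell from 9.76 to 10.67 (median 10.04) to 9.11, 9.65, 9.65, 9.42 and 9.60 (log2 difference −0.59, adjusted p = 0.013) and rose by 1.54 in CTR mice. Penk, Tac1, Sst and Cartpt did not pass the test in KO mice (0.36, 0.16, 0.10 and 0.06).

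Of 22 receptors of neuropeptides, 1 rose (Sstr2) and 3 fell (median −0.09). Npy2r, the presynaptic receptor of neuropeptide Y, fell by 2.38, from 10.95 to 11.34 (median 11.22) to 8.79, 8.98, 8.47, 9.42 and 8.24. Oprl1, the receptor of nociceptin, fell by 0.89 (adjusted p = 3.4e-04), with 9.46, 10.10, 8.99, 10.01 and 9.24 against 10.14 to 10.61, and Adcyap1r1, the receptor of PACAP, by 0.72. For PACAP the genes of the peptide and of its receptor fell, and for neuropeptide Y the peptide rose while a receptor fell. With the mean of all probes of a symbol in place of the brightest, 2 receptors were called.

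Inhibitors that feed back on MAP kinases rose in 7 of 15 cases with none lower (median 0.55), and 7 rose in CTR mice (median 0.51). Dusp4, a nuclear phosphatase of MAP kinases, had 13.10, 12.83, 13.48, 11.98 and 12.61 after KA against 10.54 to 10.78 (median 10.69), a 4.40-fold increase (2.14 on the log2 scale, standard error 0.17, adjusted p = 5.7e-09). No saline array reached the lowest KA array. Dusp4 rose by 3.19 in CTR mice, and the difference of −1.05 was called (adjusted p = 0.0099). Spred2, an inhibitor of the Ras pathway, rose by 1.38 and Dusp16 by 0.74. Dusp14 rose by 1.03 (adjusted p = 0.0025) with KO KA replicate 3, at 10.81, inside the saline range of 10.48 to 11.24. It was not called in CTR mice (0.26), and the difference was not called (adjusted p = 0.23). Of 18 genes of growth arrest and damage response, 5 rose and none fell (median 0.13). Gadd45b, which takes part in DNA demethylation at activity-induced genes, rose by 2.99, with 12.48, 12.19, 12.78, 11.92 and 12.17 after KA against 8.85 to 9.53. Cdkn1a, the cell cycle inhibitor p21, rose by 2.72 against 4.76 in CTR mice (difference −2.04, adjusted p = 5.0e-04).

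Chaperones rose in part. Of 17 cytosolic heat shock genes, 6 rose and none fell (median 0.36), against 9 in CTR mice (median 1.09). Bag3, a cochaperone that directs damaged proteins to autophagy, had 14.21, 13.83, 15.04, 13.56 and 14.42 after KA against 11.62 to 12.09 (median 11.80), a rise of 5.29-fold (adjusted p = 7.6e-09), and Hspb1, a small heat shock protein, rose by 1.53. Hsph1, which releases nucleotide from HSP70, rose by 1.51 in KO mice and 1.48 in CTR mice. Hspa1a, the inducible HSP70, had 9.69, 9.80, 10.96, 10.003 and 9.60 after KA against 9.23 to 9.82, so the groups overlapped (log2 difference 0.36, standard error 0.44, adjusted p = 0.73). In CTR mice it stood at 3.08, and the difference of −2.72 was not called (adjusted p = 0.011). Of 18 genes of the unfolded protein response of the endoplasmic reticulum, 6 rose (median 0.47), against 12 in CTR mice (median 0.81). They were Atf4, the factor that stress-controlled translation produces (1.14, adjusted p = 4.9e-04), the lumenal chaperones Hspa5 (1.10) and Calr (1.01), Xbp1 (0.82), Sdf2l1 (0.81) and Dnajb11 (0.80).

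Glial and inflammatory genes rose on tissue in which glia keep Srf. Of 28 cytokine and inflammatory genes, 10 rose and none fell (median 0.25). In CTR mice 17 rose (median 0.88), and the difference was called for 10 members, all with the smaller change in KO mice. Tnfrsf12a, a receptor of the cytokine TWEAK, had 11.16, 10.78, 11.31, 10.81 and 11.17 after KA against 8.34 to 9.27 (median 8.75) and rose 4.75-fold (adjusted p = 2.0e-09), with 2.54 on the log2 scale in CTR mice against 2.25 (adjusted p of the difference 0.65). Ccl4, a chemokine of microglia, rose by 2.24 and Ccl3 by 1.26, both by less than in CTR mice (4.47 and 3.47, differences called). Socs3, an inhibitor of cytokine signaling, had 9.94, 9.96, 11.92, 10.32 and 10.13 after KA against 8.29 to 9.27, and KO KA replicate 3 stood apart from the other 4. It rose by 1.79 against 4.53 in CTR mice (difference −2.74, adjusted p = 2.0e-04).

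Of 21 reactive astrocyte genes, 9 rose and none fell (median 0.41), against 16 in CTR mice (median 1.31). Serpina3n, a protease inhibitor, had 14.80, 14.72, 15.59, 14.22 and 15.002 after KA against 12.28 to 12.62 (median 12.48), 5.38-fold above saline (2.43 on the log2 scale, standard error 0.17, adjusted p = 7.5e-10), and its change in CTR mice was 2.24. Gfap, the intermediate filament of astrocytes, rose by 0.88 (adjusted p = 6.7e-05) and 1.31. In these 2 genes the groups did not overlap and the difference was not called (adjusted p = 0.81 and 0.29). Lcn2, an iron-binding lipocalin, rose by 2.05 against 4.70 in CTR mice (difference −2.66, adjusted p = 0.0012). Of 17 astrocyte markers Gfap was the only one called.

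The 12 largest falls among genes without overlapping groups were Dbp, a PAR bZIP factor under clock control, Ntn5, a netrin, Gpr12, Npy2r, Gabrd, Cyp11a1, Tiam2, Pgam2 and the unannotated 1110012N22Rik, 3526401B18Rik, 6430511F03 and 1110062M06Rik. All 12 were called lower in CTR mice too, none had a called difference, and for 9 of 12 its 95% interval lay within 1 log2 unit of 0, as it did for 750 of all 931 lower genes. Gpr12, a receptor that raises cyclic AMP without a ligand, had 9.20, 9.16, 8.81, 9.89 and 9.12 after KA against 11.42 to 11.85 (median 11.56), a fall by 2.38 on the log2 scale (5.21-fold, standard error 0.17, adjusted p = 9.9e-10). Cyp11a1, the enzyme that starts steroid synthesis from cholesterol, had 8.07, 8.21, 7.75, 8.49 and 8.32 against 10.10 to 10.63 (median 10.43), a fall by 2.24 (standard error 0.11, adjusted p = 4.6e-12). Its other probe was not called. Pgam2, the muscle form of phosphoglycerate mutase, fell by 1.81 in both genotypes. Groups without overlap were a condition for choosing these 12 and the 15 largest rises, and 14.5% of all genes met it.

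Among 10 GABA receptor genes, only Gabrd was called. It codes for the delta subunit of extrasynaptic receptors that carry tonic inhibition of granule cells, and had 9.28, 9.45, 8.91, 9.13 and 8.54 after KA against 10.89 to 11.67. Of 20 glutamate receptor genes, 3 fell and 2 rose (median −0.06). Grik2 and Grm5, a kainate receptor subunit and a metabotropic receptor, fell by 0.80 (adjusted p = 0.0015) and 0.84 (adjusted p = 0.038), and Gria3 by 0.64. Grik4, a kainate receptor subunit of high affinity, had 10.37, 10.91, 11.20, 10.53 and 10.77 after KA against 9.62 to 10.02 (median 9.90) and rose by 0.89 (adjusted p = 0.0016), against −0.27 in CTR mice (difference 1.16, adjusted p = 0.0097). Grm2, a presynaptic metabotropic receptor of granule cell axons, rose by 0.78 (adjusted p = 2.6e-06) against −0.32 (difference 1.10, adjusted p = 2.0e-05). No KA array overlapped a saline array in Grik4 or Grm2. The 5 calls of this list became 3 without KO KA replicate 3 and 1 with the mean of all probes of a symbol.

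Of 38 potassium channel genes, 8 fell and 5 rose (median −0.04), against 10 and 5 in CTR mice (median −0.06). Kcnh3, a slowly activating channel of forebrain neurons, fell by 1.09 (adjusted p = 5.5e-04), with 9.69, 9.90, 9.003, 9.81 and 9.66 against 10.54 to 11.16. Kcnk1, a leak channel, rose by 1.33 (adjusted p = 3.3e-07). Kcnip3, a calcium sensor that binds A-type channels and also represses transcription, had 13.12, 13.003, 12.15, 12.89 and 12.64 after KA against 11.56 to 11.95 and rose by 1.00 (adjusted p = 2.3e-04), against −0.14 in CTR mice (difference 1.14, adjusted p = 0.0064). Of 27 calcium, sodium and HCN channel genes, 5 fell and none rose (median −0.04). Scn3b, an accessory subunit of sodium channels, had 9.94, 9.85, 9.35, 10.06 and 10.38 after KA against 11.15 to 11.86 (median 11.53), a fall by 1.57 (2.97-fold, standard error 0.20, adjusted p = 7.2e-06), and fell by 1.34 in CTR mice. Scn3a, Scn2b and Scn2a fell by 0.83, 0.78 and 0.65. Cacng5, a TARP that modulates AMPA receptors, fell by 1.42 (adjusted p = 0.0013), with 8.46, 8.49, 8.96 and 8.91 in replicates 1, 2, 3 and 5 and 10.41 in KO KA replicate 4, inside the saline range of 10.12 to 10.87. Cacna1h, a T-type calcium channel, did not pass the test (13.47, 13.54, 13.17, 13.07 and 13.82 against 12.93 to 13.53, log2 difference 0.21) and fell by 2.37 in CTR mice (difference 2.58, adjusted p = 4.0e-05). With the mean of all probes, 8 potassium channel genes and 3 of the other channel genes were called.

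Clock genes split in direction, with 4 of 20 higher and 6 lower (median −0.11). In the clock, CLOCK or NPAS2 pairs with ARNTL on E-boxes, spelled CACGTG, and PER proteins and NR1D receptors repress. Per2 rose by 1.59 (3.02-fold, adjusted p = 3.2e-09), with 13.16, 12.80, 13.10, 12.56 and 13.32 against 11.30 to 11.61, and Npas2, Clock and Arntl rose by 0.74, 0.70 and 0.63. Dbp fell by 2.71 in KO and in CTR mice. Nr1d2, with overlapping groups, and Nr1d1 fell by 1.17 (adjusted p = 0.0040) and 0.91, Per3 by 0.93 and Rora by 0.66. Ciart, a repressor of the clock, had 8.77, 8.50, 8.68, 8.96 and 9.01 after KA against 9.71 to 10.40 (median 10.09) and fell by 1.28 (adjusted p = 0.0015), against −0.19 in CTR mice, a difference that was not called (adjusted p = 0.11). Another Ciart probe, at −0.67 in KO mice and 0.58 in CTR mice, had a called difference (−1.25, adjusted p = 0.0030). The promoter of Ciart held E-boxes at −116, −58 and −44 from the start site, and an E-box was present in 8.09% of all promoters. The labels give no time of day.

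Of 26 actin genes that SRF controls in other tissues, 3 rose and none fell in KO mice (median 0.02), and 5 rose and 1 fell in CTR mice. Tpm3, a tropomyosin, had 11.22, 11.21, 11.28, 11.16 and 11.66 after KA against 10.19 to 10.77 and rose by 0.80 (adjusted p = 0.0011), against 1.85 in CTR mice (difference −1.06, adjusted p = 0.0065). Myh9, a nonmuscle myosin, rose by 0.83, and Fhl2, a LIM protein, by 0.60. Acta2, the actin of smooth muscle, did not pass the test (log2 difference −1.26, standard error 0.68, adjusted p = 0.29) and ran from 12.21 to 15.07 after saline and from 12.04 to 14.19 after KA. The count of this list became 5 without KO KA replicate 3 and 1 with the mean of all probes of a symbol.

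Sterol genes are switched on together when membrane cholesterol falls. None of the 14 measured was called in KO mice (median 0.12), whereas 7 rose in CTR mice (median 0.57). Sqle, the squalene epoxidase, had 12.36, 12.13, 12.40, 12.36 and 12.12 after KA against 12.06 to 12.35 and stood at 0.07 in KO mice and 1.57 in CTR mice (difference −1.50, adjusted p = 3.1e-07). The difference was also called for Srebf2, the factor that controls these genes (0.40 and 1.56), and Cyp51 (0.41 and 1.39). None of 25 synaptic vesicle genes, 17 ribosomal protein genes and 24 respiratory chain genes was called, with medians of −0.06, 0.08 and −0.04, and of 18 glycolysis genes Pdk1, an inhibitor of pyruvate dehydrogenase, fell by 0.66. The glycolysis count became 2 when KO saline replicate 2 or 3 or KO KA replicate 4 was left out. Without KO KA replicate 4, 1 vesicle, 1 ribosomal and 1 sterol gene were called, as was 1 ribosomal gene without KO KA replicate 3 and 1 vesicle gene without KO saline replicate 6.

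Matrix genes and genes of immature neurons held a few strong changes. Of 22 genes of perineuronal nets and matrix, 4 rose and 1 fell (median 0.01). Timp1, an inhibitor of metalloproteases, rose by 2.04 (adjusted p = 3.9e-05), with 10.22, 9.91, 10.86, 10.13 and 10.42 against 7.96 to 8.61, and Ncan, Adamts1 and Adamts9 rose by 0.76, 0.73 and 0.60, while Hapln1, a link protein of the nets, fell by 0.77. These 5 calls became 3 without KO KA replicate 3. Acan, the core proteoglycan of the nets, did not pass the test (0.60) and rose by 3.38 in CTR mice (difference called). Of 20 genes of immature neurons and polysialic acid, 3 rose and 2 fell (median −0.11). The enzymes that attach polysialic acid to NCAM moved in opposite directions. St8sia2, the form of the developing brain, had 7.57 to 8.09 (median 7.91) after saline and 9.96, 10.31, 9.23, 9.74 and 10.60 after KA and rose by 2.11 (4.31-fold, standard error 0.19, adjusted p = 3.3e-08). St8sia4, the form of the adult brain, had 9.86, 10.09, 9.85, 10.13 and 10.05 after KA against 11.16 to 11.46 (median 11.35) and fell by 1.33 (2.51-fold, standard error 0.11, adjusted p = 6.1e-09). St8sia4 fell by 1.40 in CTR mice, where St8sia2 stood at −0.04 (difference 2.15, adjusted p = 2.7e-05).

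Genes called in KO mice but not in CTR mice numbered 356, 187 higher and 169 lower, and the difference was called for 37 of the higher and 5 of the lower ones. The others were not shown to differ between the genotypes. Among the 6 with the largest rises, the difference was called for Trib2, Fam210b, St8sia2, Rhbdl3 and Vstm2b and not for Itga11, a collagen receptor (difference 2.02, adjusted p = 0.029), whose difference was 2.48 and called without CTR KA replicate 1. Trib2, a pseudokinase that brings proteins to degradation, had 11.10 to 11.53 (median 11.34) after saline and 13.77, 13.91, 13.16, 13.79 and 13.83 after KA, 5.14-fold more (2.36 on the log2 scale, standard error 0.24, adjusted p = 2.6e-07). Its second probe, dim at a mean signal of 7.47, was not called. Fam210b, a mitochondrial protein of heme synthesis, had 12.43, 12.84, 12.88, 12.46 and 12.61 after KA against 10.20 to 10.47 (median 10.37), or 4.85-fold more (adjusted p = 4.8e-10), against 0.50 on the log2 scale in CTR mice. Rhbdl3, a rhomboid membrane protein, and Vstm2b, a membrane protein with an immunoglobulin domain, rose by 1.78 and 1.58, against 0.05 and 0.08. None of these 4 had overlapping groups.

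The 6 largest falls called in KO mice alone were Scgn, a calcium-binding protein of some interneurons and endocrine cells, Ciart, Ifit3, Lum, Prelp and Krt9. At their brightest probes, none had a called difference in the fit of all 22 arrays. Another Ciart probe had a called difference (−1.25, adjusted p = 0.0030). Scgn had 8.05, 8.07, 8.17, 8.20 and 8.25 after KA against 9.24 to 9.74 (median 9.51) and fell by 1.36 (adjusted p = 0.0022). Its difference from CTR mice, −1.49, was −1.81 and called (adjusted p = 0.0022) without CTR KA replicate 1, and was called too with array weights. Ifit3, an interferon-induced gene, and the matrix proteoglycans Lum and Prelp fell by 1.21, 1.14 and 1.14, with overlapping groups and with the highest KA value of each on KO KA replicate 4 (11.02, 9.76 and 12.76). The calls of Ifit3 and Lum were lost when most single KO arrays were left out, Ifit3 at −0.97 without KO saline replicate 1 and Lum at −0.93 without KO KA replicate 3. Krt9, a keratin, fell by 1.13 without overlap.

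The 11 genes called in opposite directions were Adcyap1, which fell in KO mice, and 10 that rose in KO mice and fell in CTR mice, Bcar1, Ccnjl, Galnt18, Gse1, Lingo2, Marchf4, Rimbp2, Slc27a3, Slc7a4 and Trpc4. The difference was called for all 11, which calls over 1.5-fold in opposite directions make likely. Marchf4, a ubiquitin ligase of membrane proteins, had 12.49, 12.57, 12.09, 12.35 and 12.37 after KA against 10.27 to 10.80 (median 10.60), a rise by 1.79 (3.46-fold, standard error 0.15, adjusted p = 9.2e-09), and fell by 0.95 in CTR mice (difference 2.74, adjusted p = 4.4e-08). Gse1 and Slc27a3, a fatty acid carrier, rose by 0.75 and 0.79 with overlapping groups, and 3 further Gse1 probes, all dim, were not called. Slc27a3 was not called without KO saline replicate 5 or KO KA replicate 2 or 4 (0.66 to 0.70). Rapgefl1, a relative of Rap activators, fell by 0.64 in KO mice and 2.43 in CTR mice (difference 1.78, adjusted p = 5.2e-05), and its fall in KO mice, −0.53 and −0.56 without KO KA replicate 3 or 5, was then not called.

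**Figure D4:**
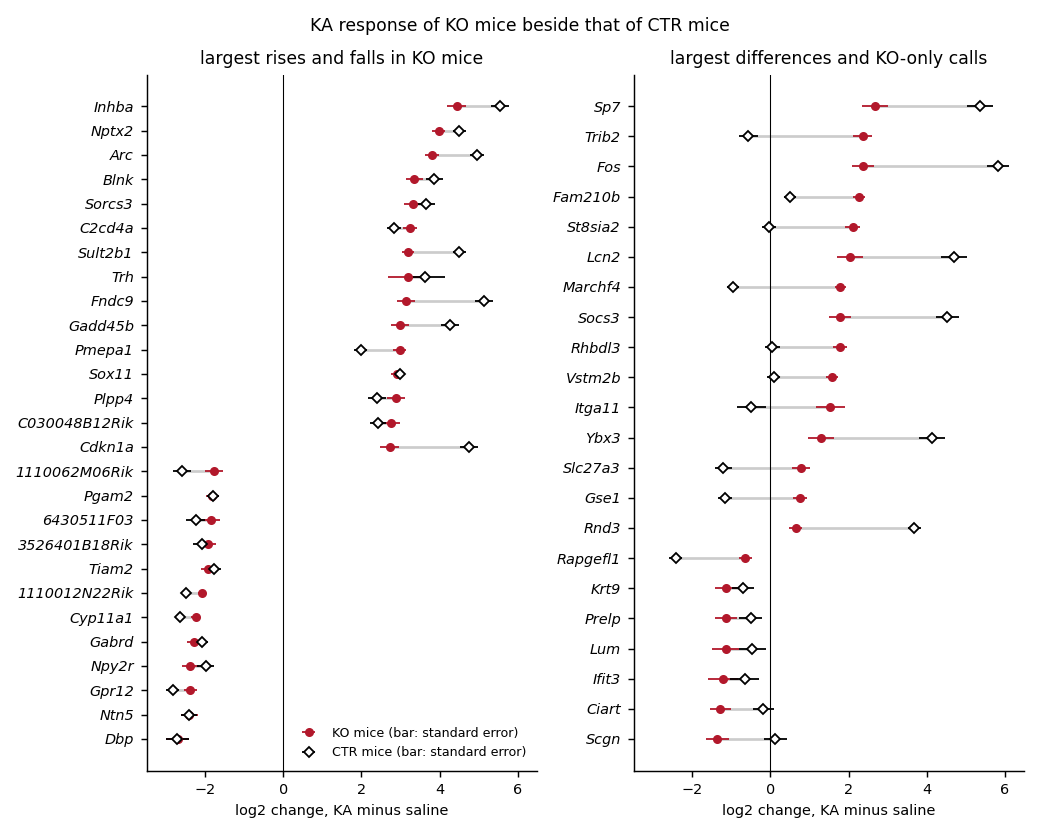
Log2 change, KA minus saline, with its standard error, of the 15 largest rises and 12 largest falls without overlapping groups in KO mice (left) and of other genes called in KO mice (right), in KO mice (filled circles) and CTR mice (diamonds). Among genes called in KO mice, the right panel holds the largest called differences and the largest changes called in KO mice alone. In the left panel none of the 12 falls had a called difference, with 1110062M06Rik, −1.78 against −2.58, among the wider gaps, while Fos, Rnd3, Socs3, Lcn2, Sp7 and Ybx3 lie far lower in KO mice in the right panel.

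The called genes with the most negative differences from CTR mice were Fos, Rnd3, Ybx3, Socs3, Sp7 and Lcn2. Fos still rose by 2.36 in KO mice (11.51, 11.47, 12.78, 11.19 and 11.97 after KA against 8.74 to 10.08), against 5.83 in CTR mice. Sp7, a zinc finger factor of bone cells, had 11.11, 10.83, 12.68, 10.02 and 11.75 after KA against 8.24 to 8.996 (median 8.65) and rose by 2.68 against 5.37 (difference −2.69, adjusted p = 0.0011). Ybx3, a cold shock protein that binds RNA, rose by 1.30 against 4.13 (difference −2.83, adjusted p = 6.1e-04), and its KO KA replicate 2, at 10.81, lay within the saline range of 9.87 to 10.84. In Fos and Sp7 the KO groups did not overlap.

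Markers of the cells that a dissected dentate gyrus can hold were measured on the same arrays. Granule cell markers were well expressed, Prox1 and C1ql2 among them, and 3 of 16 rose and 2 fell in KO mice (median −0.12), a count of 5 that became 2 when KO KA replicate 1 was left out and 3 when KO KA replicate 2 or 3 or KO saline replicate 3, 5 or 6 was. Desmoplakin (Dsp), a granule cell marker, stood at −0.09 in KO mice and −3.03 in CTR mice (difference 2.94, adjusted p = 1.8e-07). Of 6 CA1 markers Fibcd1 rose by 1.20 (adjusted p = 0.0066) and the other 5 were not called. Of 15 interneuron markers, 8 CA3 and mossy cell markers and 20 microglia markers 1 each fell (Nxph1, Iyd and P2ry12, by 0.61, 0.86 and 0.83), and of 17 oligodendrocyte markers 3 fell (Opalin, Ugt8a and Cnp, median of the list −0.36). The interneuron count became 0 when KO saline replicate 5 or KO KA replicate 3 was left out, and the microglia count 2 when KO saline replicate 2 or 3 or KO KA replicate 4 or 5 was. The oligodendrocyte count became 1 without KO saline replicate 2 or 4 or KO KA replicate 2, 3 or 5. None of 15 endothelial and 13 choroid plexus and ependymal markers was called, and 1 endothelial marker was when KO KA replicate 4 was left out.

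The choroid plexus markers varied between arrays within a group. Their summed signal ran from 13.06 to 16.90 on the log2 scale over the 6 KO saline arrays, highest in replicate 5, and from 12.48 to 16.78 over the 5 KO KA arrays, highest in replicate 4. Ttr, their most abundant gene, ran from 11.85 to 16.05 and from 10.87 to 16.04. Among the KA arrays, KO KA replicate 4 also had the highest summed CA1, oligodendrocyte and endothelial markers and the lowest granule cell markers (16.20, against 16.52 to 16.66 on the other KA arrays). Without these 2 arrays 2111 genes were called in KO mice, 975 higher and 1136 lower, and 48 of the 49 named genes were still called. The part of the dissection in the single results was not tested beyond this. The summed reactive astrocyte genes lay at 14.80 to 15.16 after saline and, without overlap, higher after KA, up to 16.77 in KO KA replicate 3.

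**Figure D5:**
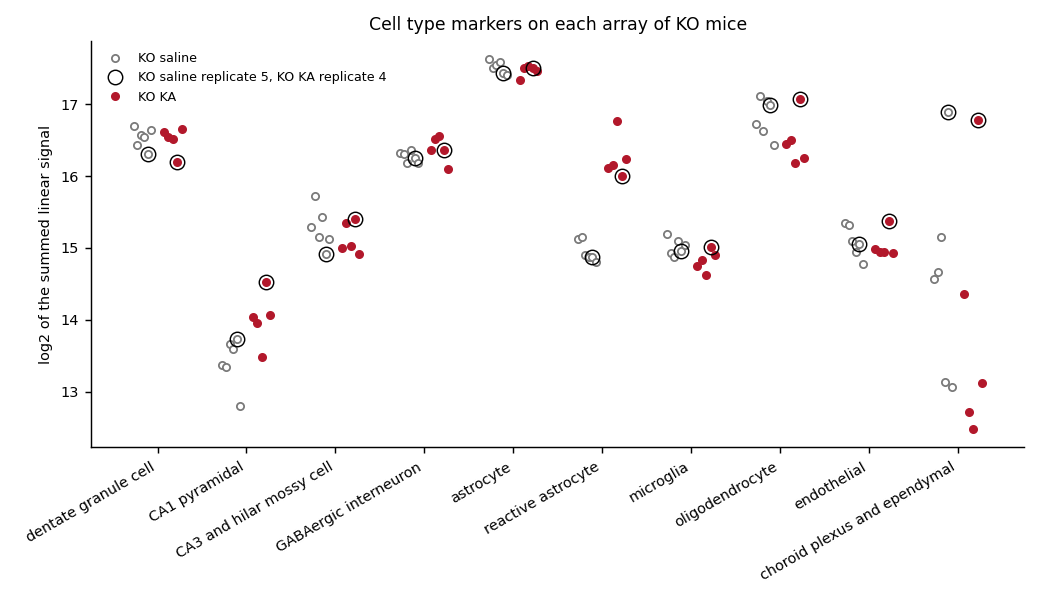
Summed linear signal (log2) of the measured members of 10 cell type lists on each array of KO mice, after saline (open circles) and KA (filled circles). Rings mark KO saline replicate 5 and KO KA replicate 4, which hold the highest choroid plexus signal, 16.90 and 16.78.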

How the data were processed

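Gene expression was measured in RNA of dissected dentate gyrus, on Illumina MouseWG-6 v2.0 BeadChips. Per the labels and the methods, the authors subtracted background, normalized the arrays by quantiles with the BeadArray package and deposited log2 signals, the values used for every result. A deposited table of non-normalized probe intensities served only to check column headings: of its 22 columns, 6 were best matched by the value column of the same title and 8 by one of the same group, so the headings of these tables disagree and only the log2 table was used. Groups rest on that table's sample labels. Of other per-sample columns there were 0.

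A linear model with the 4 group means over all 22 arrays was fitted to all 46237 probes (limma 3.58.1 in R 4.3.3, moderated statistics), and p-values were adjusted by the Benjamini-Hochberg method over all probes. Every adjusted p comes from this limma fit. The fit was tested on simulated data. A gene was represented by its probe with the highest mean signal, and the median signal of the arrays, 7.88, lies close to the floor of the scale. Named were the 15 largest rises and 12 largest falls without overlap, and the 6 largest rises and falls called in KO mice alone. Among genes called in KO mice, the 6 most positive and 6 most negative called differences were also named. So were members of the gene lists, Srf and the genes called in opposite directions. Pmepa1 is one of the 15. The gene lists and these rules were chosen with earlier results of these data known. Motif shares, array sums and overlaps carry no test. Replicates are animals, and their number limits the precision. Alternatives were array weights, an intensity trend, other centring, a filter on dim probes, other representative probes, a replicate block, the two-way fit of the methods, KO arrays alone and leaving out each array.

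Replicate numbers were not used to pair the arrays, except in the replicate block. Same-numbered KO arrays had correlations of deviations of 0.163, 0.0647, 0.157, −0.178 and 0.361. Arrays of different numbers were not compared in this way, so these values cannot decide whether the numbers pair the arrays.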

Additional observations from a re-analysis of the deposited data

Results flagged for a closer look

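In 9 of 100 groups of KO arrays tested for a single distant value, 1 array stood apart from the others of its group. The 100 groups are 50 named genes on the same 11 arrays. The rule flags about 1 in 20 independent groups by chance, so this rate cannot be set against the 9. On KO KA replicate 3, 6430511F03 and Trib2 were low (9.805 and 13.156, nearest other arrays 10.731 and 13.771 in this order) and Socs3 was high (11.919, nearest 10.323). On KO KA replicate 4, Vstm2b was low (13.898, nearest 14.633), and Ifit3 and Prelp were high (11.024 and 12.762, nearest 9.768 and 11.128). After saline, Gadd45b was low on replicate 6 (8.852, nearest 9.286), Ntn5 low on replicate 5 (11.572, nearest 12.187) and Tiam2 high on replicate 3 (11.212, nearest 10.876). KO KA replicate 4 is the KA array with the highest choroid plexus signal, and the part of this in its distant values was not tested.

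The next count leaves out genes named only as members of a list, several of which, such as Npas4, had called differences given above. Among the other named genes, the response to KA differed between the genotypes by the tested difference, KO minus CTR on the log2 scale, in 27. It was below 0 for Arc (−1.16), Sult2b1 (−1.31), Fndc9 (−1.98), Cdkn1a (−2.04), Fos (−3.47), Rnd3 (−3.04), Ybx3 (−2.83), Socs3 (−2.74), Sp7 (−2.69), Lcn2 (−2.66) and Adcyap1 (−2.14). It was above 0 for Trib2 (2.93), Marchf4 (2.74), St8sia2 (2.15), Slc27a3 (1.99), Gse1 (1.91), Rapgefl1 (1.78), Fam210b (1.78), Rhbdl3 (1.74) and Vstm2b (1.49). The genes that rose in KO mice and fell in CTR mice had differences of 1.67 for Bcar1, 1.41 for Ccnjl, 1.58 for Galnt18, 1.31 for Lingo2, 1.65 for Rimbp2, 1.74 for Slc7a4 and 1.65 for Trpc4. For Trib2 and Gse1 the other probes of the gene were not called in KO mice. They were dim, with mean signals of 7.47 for Trib2 and 7.52 to 7.75 for Gse1, so they can hardly show a change.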

How the results depend on the processing

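None of the 50 named changes in KO mice reversed its direction under the alternatives tried. The difference between the genotypes was run again only for the genes named for their largest called differences or as called in KO mice alone. In these genes it did not reverse either, and for the other named genes this was not examined. With a 2-fold threshold 541 genes were called in KO mice (328 higher, 213 lower), 1506 in CTR mice and 77 list members in KO mice. The difference between the genotypes was called for 1004 genes with array weights, 1866 in the two-way fit with p-values left unadjusted over probes, and 418 without KO saline replicate 5 and KO KA replicate 4, an alternative chosen after seeing the data, against 644. With the replicate block, 1866 genes were called in KO mice (894 higher, 972 lower), 3873 in CTR mice and 727 for the difference. Leaving out 1 array at a time gave 1651 to 2183 genes in KO mice (849 to 1016 higher, 801 to 1167 lower), 3695 to 4057 in CTR mice, 461 to 816 differences, 45 to 49 of the named genes and 138 to 161 list members. Of 50 named changes in KO mice, 42 kept their direction and side of the threshold in all 34 settings. Those of Ifit3, Lum, Slc27a3, Gse1, Rapgefl1, Rnd3 and Ybx3 missed the threshold in some settings (an array left out, array weights, the 2-fold threshold or other probes), and that of Scgn with the mean of its probes. A fit of KO arrays alone gives no value for CTR mice or the difference, the 2-fold threshold none for the difference, and the mean of probes was run only for named genes and lists. Probes near the floor of the scale understate changes.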
